A study of Mus musculus with 50 samples.

Results

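The CD25+ Foxp3- progenitor cells of the mouse thymus at day 49 of life (D49) were compared with the same sorted population at day 5 (D5). The comparison holds 6 of the 50 RNA-seq libraries of the series, chosen by their titles: 3 titled D49.P1 and 3 titled D5.P1. P1 denotes CD4+CD8-CD25+FoxP3- cells, and P2, used below to check the sort and to test whether the age change differed, denotes CD4+CD8-CD25-FoxP3+ cells. All 18 thymus libraries, P1 and P2 at D5, day 12 (D12) and D49 with 3 libraries each, came from male mice of strain B6.Cg-Foxp3tm1Kuch/J with genotype label WT, untreated as far as the labels say. In this strain a green fluorescent protein reports Foxp3, so "Foxp3-" means negative for that reporter. Each library was made from 500 to 1000 double-sorted cells following the ImmGen consortium's protocol for few cells. The other 32 libraries of the series are regulatory T cells of peripheral tissues and are not used here. The title of the series asks how regulatory T cells made around birth seed visceral fat.

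Regulatory T (Treg) cells are CD4 T cells that restrain immune responses and depend on the transcription factor Foxp3. In the thymus, CD4 single-positive cells that receive a strong signal through the T cell receptor (TCR) raise CD25, the alpha chain of the interleukin-2 (IL-2) receptor encoded by Il2ra, and a part of these CD25+ Foxp3- cells turns on Foxp3 when IL-2 activates the factor STAT5. Treg cells made around birth differ from those made in adult life in repertoire, in stability and in the tissues they fill. The CD25+ Foxp3- gate can also hold activated T cells that returned to the thymus, T cells on the way to other fates and innate-like T cells.

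Of 14696 genes tested in the fit over all 18 thymus libraries, 1587 (10.8%) differed between D49 and D5 in P1 at an edgeR adjusted p under 0.05. Higher at D49 were 611 genes (4.16%) and lower were 976 (6.64%). The change exceeded 2-fold (a log2 fold change beyond 1 in size) in 227 of the higher and 524 of the lower genes. The 3 libraries of one age lay wholly above the 3 of the other in 1576 of the 1587 called genes, against 33.4% of all genes tested. A call itself needs a wide gap between the same libraries, so this count adds no support to the calls. The count of calls was 1029 to 1209 when 1 of the 6 libraries was left out of the fit, lowest without D5 P1 replicate 1. For 1178 of the 1587 called genes the mean of the 3 D12 P1 libraries lay between the D5 and D49 means. The same held for 4233 of all 14696 genes tested. A wide gap between the ages makes such a place more likely, so the count alone does not show a gradual change. The labels do not say whether libraries of one group came from separate mice, so these p-values measure the spread between libraries, which may be technical. Levels below are normalised CPM, counts scaled to a common library size, given for replicates 1, 2 and 3 in that order, and an error after a log2 fold change is its standard error (SE) with n = 3 libraries at each age.

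The sort was checked first. Foxp3 was at 10.03, 12.0001 and 12.5 CPM at D5 and 18.9, 11.6 and 11.9 CPM at D49 (log2 fold change 0.28 ± 0.25, edgeR adjusted p = 0.562), against means of 295 CPM in P2 at D5 and 431 CPM in P2 at D49. Il2ra was at 142, 117 and 106 CPM at D5 and 133, 104 and 123 CPM at D49 (log2 fold change -0.02 ± 0.19, edgeR adjusted p = 0.989), and its P2 means were 15.6 and 41.04 CPM. The P1 libraries of both ages were thus low in Foxp3 and rich in Il2ra relative to P2, and neither gene was called between the ages. Cd4 was at 735, 704 and 691 CPM at D5 and 969, 1034 and 886 CPM at D49, not called here (log2 fold change 0.44 ± 0.27, edgeR adjusted p = 0.364) but higher at D49 by limma voom (adjusted p = 0.000936) and in the edgeR fit of the compared libraries alone (adjusted p = 0.000169). Cd8a was between 9.23 and 24.5 CPM in the 6 libraries. The female transcript Xist had 0 to 5 counts and the Y-linked Ddx3y 298 to 401 counts per library, which fits the label male.

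Total counts were 4155289 to 6246862 in the 6 libraries, with 18209 to 21664 genes detected. The 3 D12 P1 libraries had more detected genes (28545, 31478 and 27911) at 5480914, 3560989 and 4254485 total counts. Whether this affects the D12 levels given in the text and figures was not tested. Among the 6 compared libraries the following differences stood out. D49 P1 replicate 2 had the fewest detected genes and stood apart from the other D49 libraries on the second axis of a multidimensional scaling plot (-1.50, against 0.804 and 0.945). It also had the highest summed level of 12 macrophage and monocyte markers, 35.5 CPM against 7.46 and 15.8 CPM in the other D49 libraries and 7.02 to 7.88 CPM at D5. Lyz2, C1qb and C1qc, which macrophages express, were called higher at D49, and all 3 calls were lost without that library (adjusted p = 0.236, 0.163 and 0.179 in that order). They were also lost without D5 P1 replicate 1, 2 or 3 (adjusted p of 0.158 to 0.174 for Lyz2, 0.0973 to 0.107 for C1qb and 0.0636 to 0.0692 for C1qc), and that of Lyz2 without D49 P1 replicate 3 (0.0621), by DESeq2 (0.0544) and by limma voom (0.186). The macrophage sums overlapped between the ages. Summed CD8 T cell markers, in plain CPM like all marker sums here, were 49.3 to 57.5 CPM at D5 and 75.4 to 82.2 CPM at D49, and those of double-positive thymocytes were 64.0 to 73.7 and 113 to 123 CPM. Without Cd8b1 the CD8 T cell sums overlapped, at 9.07 to 17.6 CPM at D5 and 13.4 to 25.3 CPM at D49. Cd8a and Cd8b1 are members of both lists and made up 98.03% to 100% of the CD8 T cell sum and 64.2% to 83.8% of the double-positive sum. Without that pair the double-positive sums were 10.6 to 16.4 and 31.8 to 42.6 CPM, with Dntt the main contributor at D49, Rag1 and Rag2 under 1 CPM in each library and Ptcra at 0 in all 6. Summed natural killer (NK) cell markers were 7.39 to 12.5 CPM at D5 and 23.02 to 33.6 CPM at D49, but without Klrb1c they overlapped, at 7.39 to 12.5 and 8.93 to 18.3 CPM. Endothelial markers, nearly all from Pecam1, were 188 to 220 and 242 to 258 CPM and overlapped without that gene. Markers of gamma delta and innate-like T cells, with Cd163l1 the most abundant, went the other way, from 62.1 to 70.8 CPM at D5 to 15.6 to 19.3 CPM at D49 (18.3 to 25.3 and 13.96 to 15.4 CPM without Cd163l1). The CD8, double-positive, NK, endothelial and gamma delta sums did not overlap between the ages in plain or normalised CPM, and the exact two-sided permutation p was 0.1 for each, the smallest that 3 libraries against 3 can give. The CD4 T cell sum did not overlap in plain CPM (5826 to 6056 CPM at D5, 6258 to 6786 CPM at D49, exact permutation p = 0.1) but did in normalised CPM (5910.4 to 6283 and 6028 to 6728, exact permutation p = 0.2). Sums over B cell, dendritic cell, neutrophil, thymic epithelial, erythroid and fibroblast markers overlapped too. Bst2 made up 71.8% to 94.9% of the dendritic cell sum. Without Bst2 that sum still overlapped, at 6.10 to 19.05 CPM at D5. It was highest in D49 P1 replicate 3, at 37.9 CPM against 13.0 and 9.63 CPM in D49 P1 replicates 1 and 2. The part that such cells have in the results below was not tested except where a value is given.

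The genes of cell division fell together. All 39 DNA replication genes tested were lower at D49 (median log2 fold change -1.47), as were 39 of 40 mitosis genes (median -2.54), while the median over all 14696 genes was 0. The mitosis count stayed at 39 in each of the 6 fits that left out 1 library, and the replication count was 34 to 39. The plot of the lists shows these groups at the left, with no member to the right of 0. In bulk libraries such as these, fewer cycling cells and less RNA of these genes per cell cannot be told apart.

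**Figure D1:**
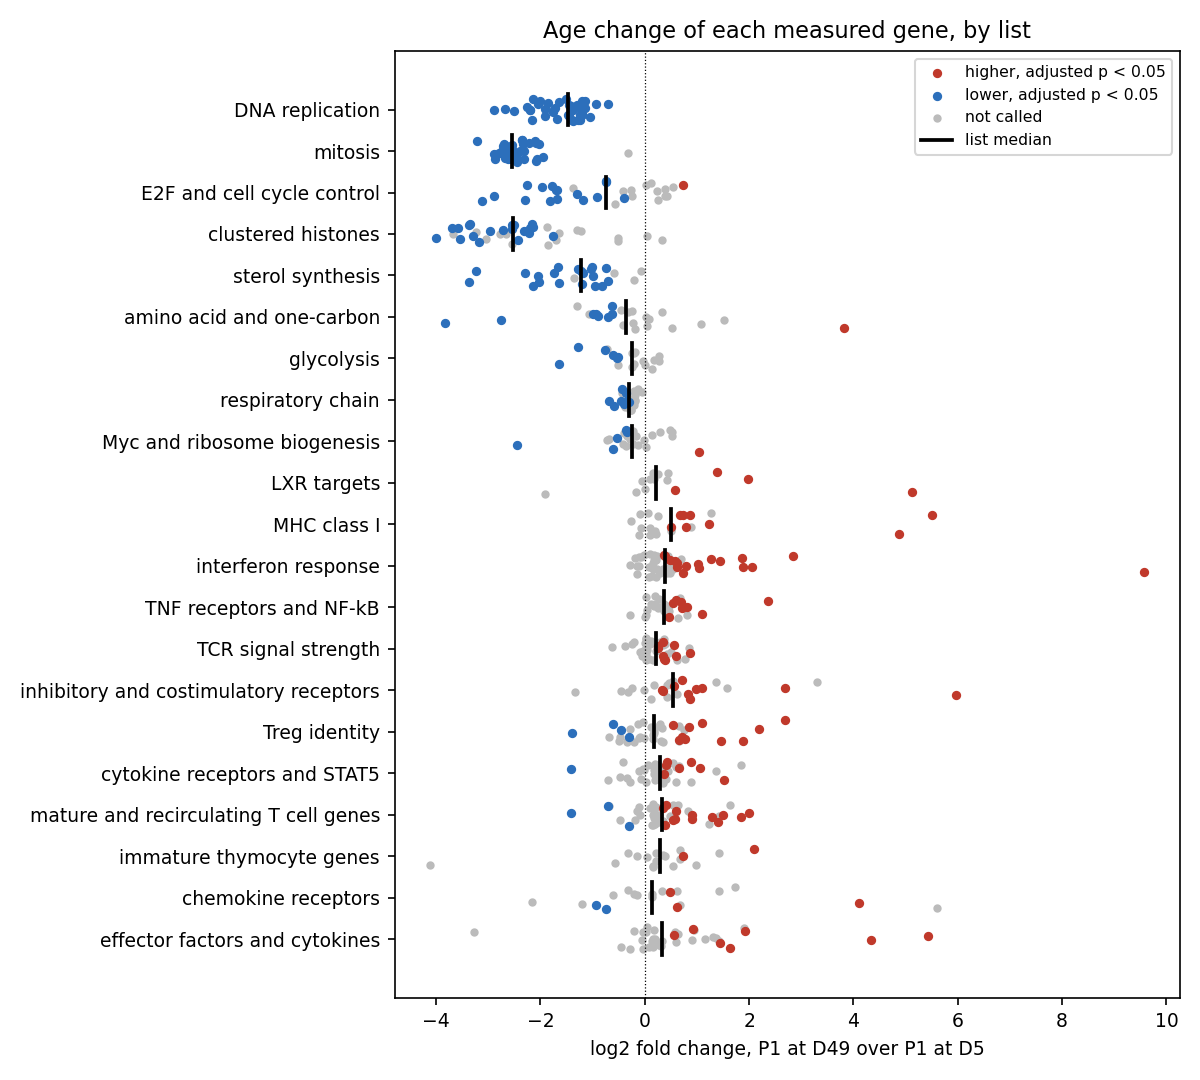
Log2 fold change of P1 at D49 over P1 at D5 for each measured gene of the lists named at the left, with red points for genes called higher, blue points for genes called lower, grey points for genes not called and a black bar for the list median. DNA replication, mitosis, histone and sterol genes lie mostly to the left (medians -1.47, -2.54, -2.53 and -1.22), and the red point farthest to the right is Ifi44, whose fitted value is not a measured fold because all D5 libraries were at 0.

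Mki67, which encodes the proliferation marker Ki-67, was at 279.9, 262 and 267 CPM at D5 and 38.01, 39.6 and 49.6 CPM at D49 (log2 fold change -2.66 ± 0.34, edgeR adjusted p = 4.01e-05), 6.35-fold lower at D49 by the means. Every D5 library was far above every D49 library.

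Cdk1, the kinase that drives entry into mitosis, is the mitosis gene with the smallest adjusted p among those whose promoter window holds both motifs below. It was at 244, 213 and 264 CPM at D5 and 33.6, 42.9 and 39.9 CPM at D49 (log2 fold change -2.63 ± 0.27, edgeR adjusted p = 1.68e-06). In the RefSeq table of promoters used here (GRCm38.p6, the 250 bases before a gene's start), its sequence at chr10:69352913-69353162, minus strand, is shown because it carries the motifs usually named for mitosis genes. Capitals mark TTTGAA, the core of the cell cycle homology region (CHR), and ATTGG, the reverse strand of the CCAAT box.
Cdk1: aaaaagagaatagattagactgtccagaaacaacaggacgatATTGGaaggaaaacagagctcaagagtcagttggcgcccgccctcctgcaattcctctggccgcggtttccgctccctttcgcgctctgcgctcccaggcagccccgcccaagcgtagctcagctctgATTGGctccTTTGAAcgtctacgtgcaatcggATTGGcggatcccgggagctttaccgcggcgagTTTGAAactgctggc
Searched on both strands, with no overlap between the matches shown, TTTGAA stood in 11 of 35 mitosis promoters (31.4%) against 15.3% of all 20592 promoters in the table. The list promoters here and below are of genes tested, and TTTGAA stood in 11.4% of the 10304 promoters of genes tested. CCAAT stood in 26 of the 35 mitosis promoters (74.3%) against 35.1% of all promoters and 36.5% of those of genes tested. Neither motif was found in these promoters alone: TTTGAA stood in 12 of 38 interferon response promoters (31.6%), and CCAAT in 15 of 18 promoters of major histocompatibility complex (MHC) class I genes (83.3%). A match is a description of the sequence and not a measured site.

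The kinetochore, spindle and chromosomal passenger genes with the smallest p-values moved alike. Birc5, which encodes the passenger protein survivin, was at 264, 249 and 272 CPM at D5 and 31.02, 42.5 and 43.9 CPM at D49 (log2 fold change -2.74 ± 0.23, edgeR adjusted p = 8.28e-08). Spc25, a subunit of the NDC80 kinetochore complex, was at 126, 112 and 131 CPM at D5 and 19.8, 22.2 and 20.9 CPM at D49 (log2 fold change -2.55 ± 0.20, edgeR adjusted p = 1.41e-08). Incenp, another passenger subunit, was at 295, 293 and 263 CPM at D5 and 69.96, 56.4 and 76.95 CPM at D49 (log2 fold change -2.06 ± 0.17, edgeR adjusted p = 4.82e-08). In all 3 genes the D49 libraries lay close together and far under D5. The other kinetochore and spindle genes named by the rule (Spc24, Ndc80, Prc1, Cenpf, Cenpn and Hmmr) had log2 fold changes from -3.22 for Cenpn to -1.94 for Ndc80. Aurkb, the kinase of the passenger complex, had a log2 fold change of -2.79, and the cyclin gene Ccnb1 -2.86. Pttg1, which encodes securin, was the 1 mitosis gene not called (log2 fold change -0.31 ± 0.21, edgeR adjusted p = 0.428).

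The replication genes fell less than the mitosis genes by their medians. Rrm1, the large subunit of the reductase that makes deoxynucleotides, was at 677, 616 and 601 CPM at D5 and 133, 162 and 179 CPM at D49 (log2 fold change -1.9996 ± 0.17, edgeR adjusted p = 4.82e-08). Tipin, a fork protection factor, was at 201, 222 and 224 CPM at D5 and 45.5, 46.02 and 53.1 CPM at D49 (log2 fold change -2.16 ± 0.15, edgeR adjusted p = 3.86e-09), a 4.47-fold lower mean. Neither gene overlapped between ages. Subunits of the MCM helicase fell by less, with log2 fold changes of -1.401 for Mcm7, -1.15 for Mcm4 and -1.04 for Mcm2, as did the sliding clamp gene Pcna (-1.24) and the clamp loader gene Rfc5 (-1.45). Mcm10, a helicase activator, fell further (log2 fold change -2.89).

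Mcm7 was at 597, 553 and 585 CPM at D5 and 209, 212 and 236 CPM at D49 (edgeR adjusted p = 6.85e-08). Its RefSeq promoter (GRCm38.p6, chr5:138171884-138172133, minus strand) is shown for the E2F match in capitals, GCGGGAAA.
Mcm7: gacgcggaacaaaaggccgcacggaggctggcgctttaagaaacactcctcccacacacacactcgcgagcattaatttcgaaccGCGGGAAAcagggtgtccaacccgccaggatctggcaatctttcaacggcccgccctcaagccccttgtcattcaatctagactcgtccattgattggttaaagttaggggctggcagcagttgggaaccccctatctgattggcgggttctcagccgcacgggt
The E2F letters searched were TTTCCCGC and TTTGGCGC on both strands. They stood in 6 of 31 replication promoters (19.4%), in 0 of 35 mitosis promoters and in 2 of 18 MHC class I promoters (11.1%). The share was 1.62% over all promoters and 2.56% over those of genes tested.

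Among 30 regulators of the cell cycle, 16 fell and 1 rose (median -0.74). Ccne1, the cyclin of S phase entry, was at 158, 138 and 130.2 CPM at D5 and 33.6, 39.6 and 35.5 CPM at D49 (log2 fold change -1.97 ± 0.16, edgeR adjusted p = 3.6e-08). E2f2, an activating E2F factor, was at 92.3, 84.9 and 87.9 CPM at D5 and 30.3, 22.7 and 29.1 CPM at D49 (log2 fold change -1.69 ± 0.17, edgeR adjusted p = 4.55e-07). The phosphatase genes Cdc25c and Cdc25b had log2 fold changes of -3.12 and -1.79, the repressive factors E2f8 and E2f7 -2.88 and -1.67, and the kinase gene Cdk2 -1.18. The member that rose was Btg2, an antiproliferative gene, at 220.5, 237 and 236 CPM at D5 and 335, 408 and 408 CPM at D49 (log2 fold change 0.73 ± 0.13, edgeR adjusted p = 0.000352). Cdkn2d, an inhibitor of CDK4 and CDK6, fell (log2 fold change -0.74 ± 0.12, edgeR adjusted p = 0.000152). The D cyclin genes and the inhibitor genes Cdkn1b and Cdkn2c were not called.

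Of 70 clustered histone genes, 36 had enough counts to be tested, and 20 of these fell and none rose (median -2.53). Most messages of these genes carry no poly(A) tail, and the libraries were made from polyadenylated RNA, so the values cover only the tailed part. H2bc11, a histone H2B gene, was at 26.3, 26.8 and 25.7 CPM at D5 and 1.63, 2.596 and 2.25 CPM at D49 (log2 fold change -3.59 ± 0.56, edgeR adjusted p = 0.000127). H4c9, a histone H4 gene, was at 33.7, 45.9 and 42.5 CPM at D5 and 8.86, 7.32 and 10.2 CPM at D49 (log2 fold change -2.202 ± 0.23, edgeR adjusted p = 6.12e-07). Near-identical copies in this family can share reads, so single members are uncertain. The list of histone genes was added after the data were seen.

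In the list of 25 chromatin genes 7 fell, 2 rose and 16 were not called (median -0.10). Uhrf1, which recruits the maintenance methyltransferase, was at 428, 347 and 354 CPM at D5 and 69.5, 78.8 and 105 CPM at D49 (log2 fold change -2.15 ± 0.23, edgeR adjusted p = 2.56e-06). Dnmt1, that methyltransferase, was at 626, 476 and 494 CPM at D5 and 242, 219 and 215 CPM at D49 (log2 fold change -1.24 ± 0.17, edgeR adjusted p = 2.47e-05). The members that rose were Kmt2d (472, 485 and 489 CPM at D5 and 755, 679 and 724 CPM at D49, log2 fold change 0.58 ± 0.09, edgeR adjusted p = 0.000154) and Kmt2a (log2 fold change 0.72 ± 0.12, edgeR adjusted p = 0.000312), both histone H3 lysine methyltransferase genes. The other genes that fell were Cbx5, Hells, Suv39h1, Kmt5a and Ezh2, of which Ezh2 lost its call without D5 P1 replicate 3 (adjusted p = 0.0506).

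**Figure D2:**
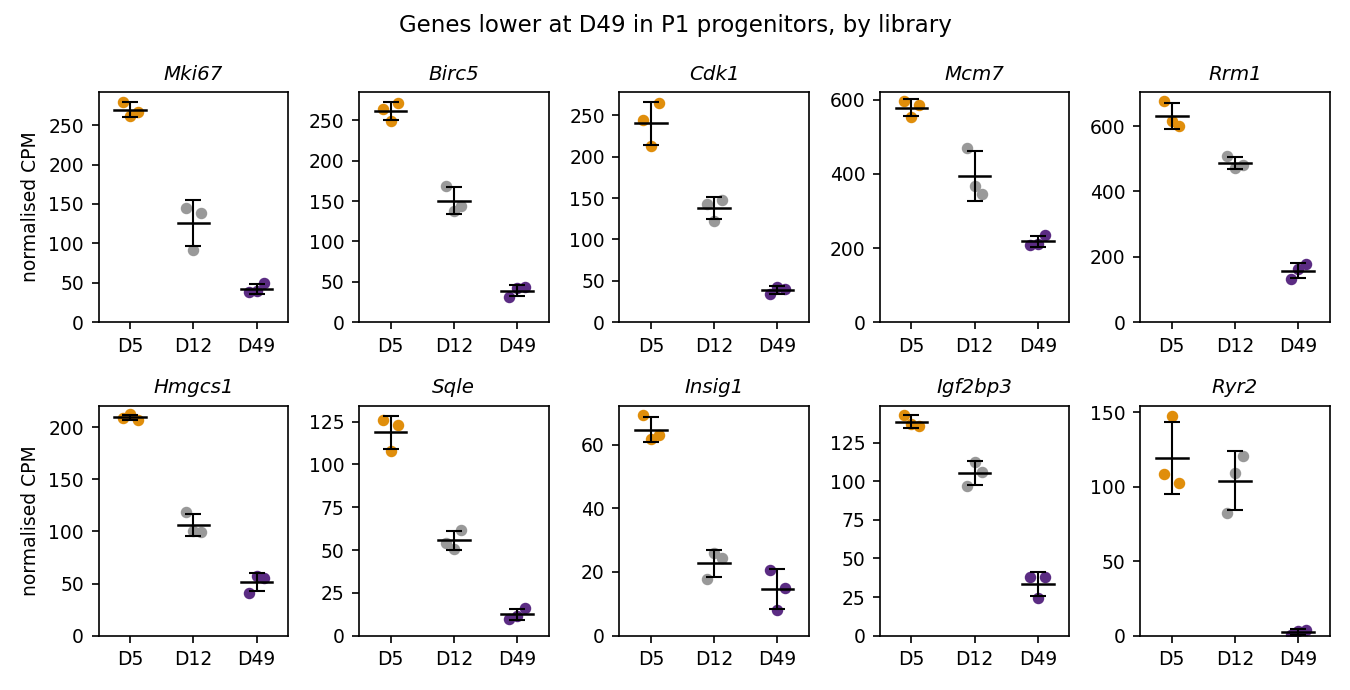
Normalised CPM of 10 genes lower at D49, with 1 point for each P1 library at D5, D12 and D49 and bars for the mean and SD of 3 libraries. In each panel the 3 D49 points lie under the 3 D5 points (Mki67 means 42.4 and 269.6 CPM), and the D12 points lie between them except for Ryr2, where they overlap D5, and Insig1, where they overlap D49. More genes were detected in the D12 libraries (27911 to 31478) than in the others shown.

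Genes of sterol synthesis were lower at D49 as well. Cells take cholesterol up from lipoproteins or make it from acetyl-CoA, and the factor SREBP2 drives both when sterols are scarce. When sterols are plentiful, oxysterols activate LXR, which drives export. Of 24 genes of sterol synthesis and uptake tested, 20 were lower at D49 and none was higher (median -1.22), and the other 4 had log2 fold changes under 0. The count was 12 to 15 when 1 library was left out: 12 without D5 P1 replicate 1, 13 without D5 P1 replicate 2 or D49 P1 replicate 2, 14 without D49 P1 replicate 3 and 15 without either remaining library.

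Sqle, the squalene epoxidase, was at 126, 108 and 123 CPM at D5 and 9.79, 11.3 and 16.3 CPM at D49 (log2 fold change -3.24 ± 0.26, edgeR adjusted p = 2.48e-08), 9.54-fold lower at D49. Insig1, which holds SREBP in the endoplasmic reticulum and is itself its target, was at 69.2, 61.9 and 62.9 CPM at D5 and 20.8, 8.02 and 15.04 CPM at D49 (log2 fold change -2.14 ± 0.29, edgeR adjusted p = 1.81e-05). Cyp51, the lanosterol demethylase, had a log2 fold change of -2.05, the methylsterol oxidase gene Msmo1 -1.67, the squalene synthase gene Fdft1 -1.202 and the thiolase gene Acat2 -1.23.

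Hmgcs1, the synthase of an early step of the pathway, was at 209, 212 and 207 CPM at D5 and 41.3, 56.9 and 55.5 CPM at D49 (log2 fold change -2.03 ± 0.14, edgeR adjusted p = 3.22e-09). Its RefSeq promoter (GRCm38.p6, chr13:119690101-119690350, plus strand) is shown for the sterol response element (SRE) in capitals, TCACCCCAC.
Hmgcs1: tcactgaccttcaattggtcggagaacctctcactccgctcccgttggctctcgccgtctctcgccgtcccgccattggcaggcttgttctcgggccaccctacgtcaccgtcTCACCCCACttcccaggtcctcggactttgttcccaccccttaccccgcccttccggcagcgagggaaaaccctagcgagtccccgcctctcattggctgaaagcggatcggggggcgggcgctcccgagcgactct
TCACNCCAC on either strand stood in 1 of 17 sterol synthesis promoters in the table (5.88%), that of Hmgcs1. The share was 1.06% over all promoters and 0.941% over those of genes tested. CCAAT stood in 15 of the 17 (88.2%) against 35.1% of all.

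Targets of LXR moved in the opposite direction in part: 4 of 14 tested rose and none fell (median 0.22). Abca1, which exports cholesterol to apolipoprotein A-I, was at 2.81, 0.375 and 0.664 CPM at D5 and 39.6, 44.6 and 48.1 CPM at D49 (log2 fold change 5.13 ± 0.43, edgeR adjusted p = 4.82e-08), 34.4-fold higher by the means and at 11.5 CPM at D12. Abcg1, which exports cholesterol to high-density lipoprotein, was at 68.2, 67.9 and 80.7 CPM at D5 and 257, 288 and 306 CPM at D49 (log2 fold change 1.97 ± 0.12, edgeR adjusted p = 1.1e-09). Mylip, a ubiquitin ligase of sterol balance, was at 29.1, 39.0002 and 34.5 CPM at D5 and 99.3, 84.95 and 84.7 CPM at D49 (log2 fold change 1.39 ± 0.17, edgeR adjusted p = 5.45e-06). None of these genes overlapped between ages, and their calls held in every alternative fit that tested them. The fourth, Npc1 (log2 fold change 0.59 ± 0.17, edgeR adjusted p = 0.0241), lost its call without any 1 of D49 P1 replicate 1, D49 P1 replicate 2, D5 P1 replicate 1, D5 P1 replicate 2 and D5 P1 replicate 3 (adjusted p from 0.0547 to 0.118). Srebf1 and Lpcat3, other LXR targets, were not called (log2 fold changes -0.0011 and 0.17). Of 11 fatty acid synthesis genes 2 were lower (median -0.29), Fads2 and Elovl6, each losing its call without D5 P1 replicate 3 (adjusted p = 0.078 and 0.0568) and Elovl6 without any other library too (0.108 to 0.2).

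Lists of metabolic genes outside the sterol pathway had medians nearer to 0. In the list of amino acid and one-carbon genes 8 of 24 fell and 1 rose (median -0.37). Asns, which makes asparagine, was at 28.5, 20.8 and 24.1 CPM at D5 and 3.73, 1.42 and 0.173 CPM at D49 (log2 fold change -3.83 ± 0.69, edgeR adjusted p = 0.000545). Gcat, of threonine breakdown, was at 65.003, 59.8 and 52.8 CPM at D5 and 2.33, 12.98 and 10.7 CPM at D49 (log2 fold change -2.76 ± 0.41, edgeR adjusted p = 8.5e-05). Psat1 and Phgdh, of serine synthesis, had log2 fold changes of -0.99 and -0.71, and the mitochondrial folate gene Mthfd1l -0.93. Pck2, the mitochondrial enzyme that makes phosphoenolpyruvate, rose from 2.61, 2.44 and 1.49 CPM at D5 to 33.6, 29.3 and 29.2 CPM at D49 (log2 fold change 3.81 ± 0.41, edgeR adjusted p = 1.25e-06). Asns and Pck2 are both known targets of the stress factor ATF4, and they moved in opposite directions. Atf4 itself was not called (log2 fold change 0.03), and the activity of its protein was not tested.

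In glycolysis 6 of 19 genes fell (median -0.24), a count of 3 to 5 when 1 library was left out (3 without D49 P1 replicate 3). Tpi1, the triose phosphate isomerase, was at 397, 362 and 352 CPM at D5 and 119, 139 and 99.1 CPM at D49 (log2 fold change -1.64 ± 0.12, edgeR adjusted p = 6.14e-09), a far larger change than that of the pyruvate kinase gene Pkm (log2 fold change -0.51 ± 0.10, edgeR adjusted p = 0.00133). Slc16a3, a lactate exporter, was at 67.4, 76.7 and 80.05 CPM at D5 and 31.9, 32.3 and 27.8 CPM at D49 (log2 fold change -1.29 ± 0.24, edgeR adjusted p = 0.00067). In the respiratory chain 8 of 24 genes fell and all 24 had log2 fold changes under 0 (median -0.29), but the count was 2 to 4 in each fit without 1 library (2 without D49 P1 replicate 3 or D5 P1 replicate 1, 3 without D49 P1 replicate 1 or D5 P1 replicate 3, 4 without either remaining library) and 2 with no filter on low counts. Cox7a2 (log2 fold change -0.69 ± 0.12, edgeR adjusted p = 0.000513) and Cox5a (log2 fold change -0.59 ± 0.11, edgeR adjusted p = 0.00103), subunits of cytochrome oxidase, kept their calls in every fit. Of 25 Myc and ribosome biogenesis genes 5 fell and 1 rose, and the lower count was 1 without D49 P1 replicate 1, 2 without D5 P1 replicate 3 and 3 without any other library. Mxd3 fell (log2 fold change -2.45 ± 0.32, edgeR adjusted p = 1.28e-05) and Mxd4 rose (log2 fold change 1.04 ± 0.23, edgeR adjusted p = 0.00518); both encode partners of Max that oppose Myc. Myc itself was at 310.4, 294 and 299.8 CPM at D5 and 191, 226 and 209 CPM at D49 (log2 fold change -0.53 ± 0.16, edgeR adjusted p = 0.0318), a call lost without any 1 of the 6 libraries (adjusted p from 0.0558 to 0.193).

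Genes of MHC class I, which shows peptides to CD8 T and NK cells, were higher at D49. Of 22 tested 8 rose and none fell (median 0.50), and 8 rose in each fit without 1 library. H2-Q7 (mm10 chr17:35439155-35443773, plus strand), a nonclassical class I gene of the Qa-2 group, was at 10.2, 8.44 and 4.98 CPM at D5 and 210.4, 263 and 219 CPM at D49 (log2 fold change 4.88 ± 0.30, edgeR adjusted p = 3.22e-09), 29.3-fold higher. H2-Q6, its neighbour at chr17:35424850-35430055, plus strand, was at 0.803, 0.750004 and 1.99 CPM at D5 and 39.4, 60.4 and 68.8 CPM at D49 (log2 fold change 5.504 ± 0.46, edgeR adjusted p = 3.76e-08). At D12 both were near their D5 level, with P1 means of 11.1 and 2.14 CPM. These neighbours are highly similar in sequence, so how reads divide between the pair is uncertain.

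The classical genes changed less in fold but at far higher counts. H2-K1 was at 1509, 1286 and 1438 CPM at D5 and 3090.3, 3722 and 3181 CPM at D49 (log2 fold change 1.24 ± 0.18, edgeR adjusted p = 0.000124). H2-D1 was at 1466, 1369 and 1385 CPM at D5 and 2288, 2717 and 2316 CPM at D49 (log2 fold change 0.79 ± 0.09, edgeR adjusted p = 3.9e-06). B2m, the light chain of every class I molecule, was at 1409, 1356 and 1529.5 CPM at D5 and 2113, 2781 and 2249 CPM at D49 (log2 fold change 0.73 ± 0.09, edgeR adjusted p = 5.77e-06). D49 P1 replicate 2 was the highest D49 library in all 3 of these genes and in 6 of the 8 class I genes that rose. That library was the highest for 245 of all 611 genes called higher. In the 3 genes the lowest D49 library was above the highest D5 library. Nlrc5, the transactivator of class I genes, was at 157, 113 and 135 CPM at D5 and 228, 206 and 213 CPM at D49 (log2 fold change 0.67 ± 0.13, edgeR adjusted p = 0.00129). The peptide transporter and immunoproteasome genes Tap1, Psmb8, Psmb9 and Psmb10 were not called (log2 fold changes -0.10 to 0.10).

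**Figure D3:**
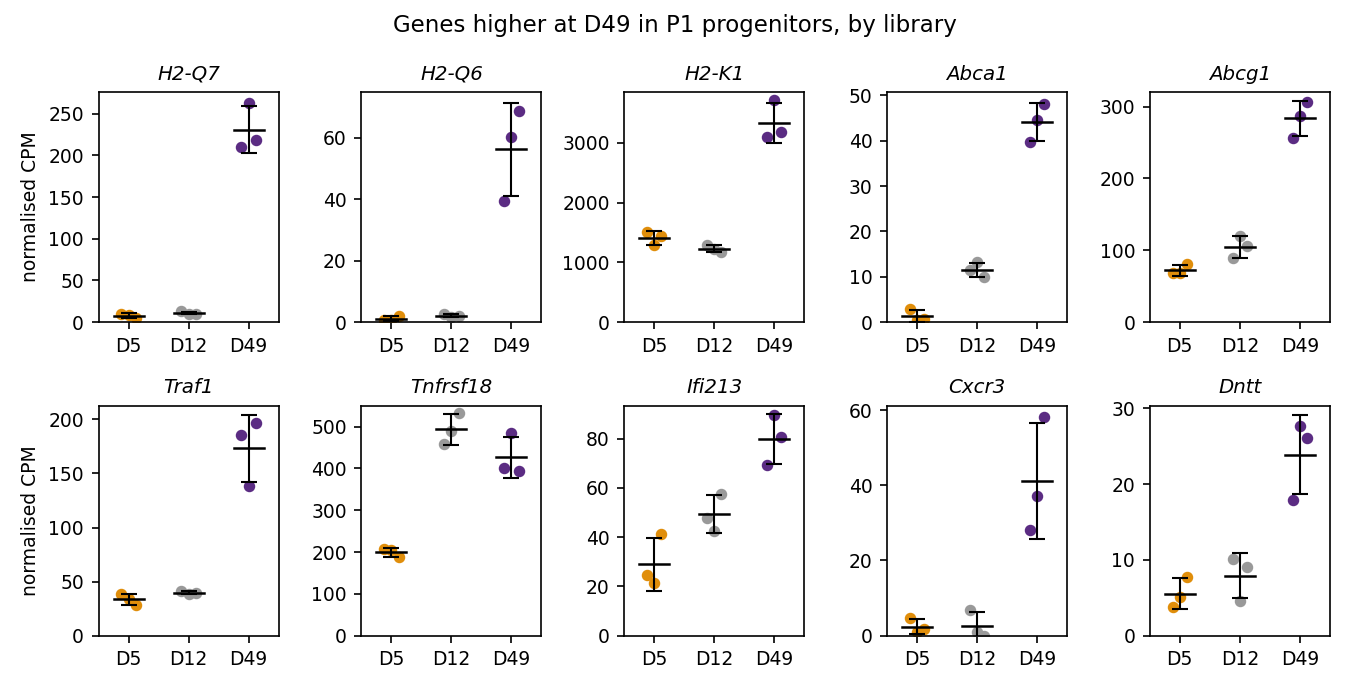
Normalised CPM of 10 genes higher at D49, with 1 point for each P1 library at D5, D12 and D49 and bars for the mean and SD of 3 libraries. In each panel the D49 points lie above the D5 points, and at D12 H2-Q7, H2-Q6, H2-K1, Traf1 and Cxcr3 were near D5 while Tnfrsf18 was at the D49 level. The D12 libraries had more detected genes than the others shown (27911 to 31478), and the effect on their levels was not tested.

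Of 51 interferon response genes tested, 17 rose and none fell (median 0.38). D49 P1 replicate 2 was the highest D49 library for 15 of the 17, against 245 of the 611 genes called higher over all genes. Without that library 13 of the list were called, and 12 without D5 P1 replicate 3. Ly6a, the surface protein Sca-1, was at 33.3, 33.8 and 36.7 CPM at D5 and 100.3, 163 and 116 CPM at D49 (log2 fold change 1.87 ± 0.22, edgeR adjusted p = 3.95e-06). Ifi27l2a was at 604, 565 and 680.2 CPM at D5 and 927, 1309.9 and 956 CPM at D49 (log2 fold change 0.79 ± 0.12, edgeR adjusted p = 8.35e-05). Oasl1, of the oligoadenylate synthetase family, was at 10.8, 11.8 and 11.5 CPM at D5 and 26.8, 59.2 and 39.9 CPM at D49 (log2 fold change 1.88 ± 0.28, edgeR adjusted p = 8.02e-05). The D49 libraries spread most in Oasl1, and no gene of the 3 overlapped between ages.

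Ifi213, a member of the DNA-sensing AIM2-like family, was at 24.5, 21.4 and 41.4 CPM at D5 and 69.3, 89.4 and 80.6 CPM at D49 (log2 fold change 1.45 ± 0.19, edgeR adjusted p = 1.15e-05). Its RefSeq promoter (GRCm38.p6, chr1:173599273-173599522, minus strand) is shown for the interferon-stimulated response element (ISRE) in capitals, GAAATCGAAA.
Ifi213: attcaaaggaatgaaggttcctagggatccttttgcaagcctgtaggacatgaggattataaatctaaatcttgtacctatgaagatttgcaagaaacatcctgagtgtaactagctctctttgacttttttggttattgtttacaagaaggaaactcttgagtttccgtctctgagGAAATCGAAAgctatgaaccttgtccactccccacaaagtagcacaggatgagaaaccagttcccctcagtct
GAAA, NN and GAAA in a row, on either strand, stood in 23 of 38 interferon response promoters (60.5%) and in 3 of 18 MHC class I promoters (16.7%). The share was 3% over all promoters and 2.7% over those of genes tested. Ifi44 had no count in any D5 library and was at 11.2, 29.7 and 21.8 CPM at D49 (edgeR adjusted p = 3.17e-05). Against a floor of 3 counts over the D5 group its mean was at least 114-fold higher, and with Ifi44 at that bound the list median was still 0.38. Oas1a was at 3.21, 3.00002 and 3.99 CPM at D5 and 13.8, 39.9 and 20.2 CPM at D49 (log2 fold change 2.84 ± 0.44, edgeR adjusted p = 9.86e-05). Classical members such as Isg15, Ifit3 and Mx1 were not called (log2 fold changes -0.15, 0.21 and 0.16).

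Receptors of the TNF family and NF-kB genes are described next, since thymic Treg progenitors are known to use GITR, OX40 and TNFR2 signals. Of 30 tested 8 rose and none fell (median 0.38). The count was 5 without D5 P1 replicate 2 or 3, 14 by limma voom and 14 in the fit of the compared libraries alone. Tnfrsf18, which encodes GITR, was at 206, 205 and 187 CPM at D5 and 401, 484 and 393 CPM at D49 (log2 fold change 1.095 ± 0.13, edgeR adjusted p = 3.2e-06). Tnfrsf9, which encodes 4-1BB, was at 469.9, 539 and 464 CPM at D5 and 759.8, 945 and 727 CPM at D49 (log2 fold change 0.72 ± 0.16, edgeR adjusted p = 0.00498). Tnfrsf4, which encodes OX40, was at 581, 598 and 571 CPM at D5 and 595, 732 and 568 CPM at D49 and was not called (log2 fold change 0.11 ± 0.11, edgeR adjusted p = 0.616). GITR was higher in every D49 library than in any D5 library, and OX40 overlapped between ages.

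Traf1, an adaptor of these receptors and an NF-kB target, was at 38.5, 33.8 and 28.7 CPM at D5 and 185, 138 and 196 CPM at D49 (log2 fold change 2.37 ± 0.18, edgeR adjusted p = 8.28e-09). Nfkbia, the inhibitor IkBa that NF-kB itself induces, was at 358, 407 and 422 CPM at D5 and 637, 684 and 605 CPM at D49 (log2 fold change 0.70 ± 0.10, edgeR adjusted p = 7.13e-05). Cd27 was at 506, 551 and 544 CPM at D5 and 732, 805 and 674 CPM at D49 (log2 fold change 0.47 ± 0.08, edgeR adjusted p = 0.000498). The subunit genes Rela, Rel, Relb and Nfkb1 were not called, with log2 fold changes from 0.18 to 0.47. Nfkb2 (log2 fold change 0.59 ± 0.17, edgeR adjusted p = 0.0289) lost its call without D49 P1 replicate 2 (adjusted p = 0.215), D5 P1 replicate 2 (0.0695) or D5 P1 replicate 3 (0.118).

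Genes that follow TCR signal strength gave 9 higher and none lower of 40 (median 0.22). The count was 4 without D5 P1 replicate 1 or 3, 5 without D49 P1 replicate 1 and 6 without D49 P1 replicate 2 or D5 P1 replicate 2. Nr4a1, the immediate readout of TCR signals, was at 1097, 1086 and 1206 CPM at D5 and 1168, 1175 and 956 CPM at D49 and Cd5, a surface gauge of them, at 1067, 1072 and 1094 CPM at D5 and 1057, 1169 and 1015 CPM at D49. Neither was called by edgeR (log2 fold change -0.04, adjusted p = 0.939 for Nr4a1, and 0.00, adjusted p = 1 for Cd5). Ptpn22, a phosphatase that dampens TCR signals, was at 140.4, 178 and 168 CPM at D5 and 209.7, 264 and 262 CPM at D49 (log2 fold change 0.60 ± 0.11, edgeR adjusted p = 0.000898). Nfatc1, a calcium-driven factor, was at 138, 161 and 184 CPM at D5 and 247, 216 and 246 CPM at D49 (log2 fold change 0.56 ± 0.12, edgeR adjusted p = 0.00375). Kcnn4, a potassium channel that sustains calcium entry, was at 549, 709 and 668 CPM at D5 and 1082, 1043 and 991 CPM at D49 (log2 fold change 0.69 ± 0.12, edgeR adjusted p = 0.000304).

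Inhibitory and costimulatory receptors gave 10 higher and none lower of 25 (median 0.53), with 8 to 10 when 1 library was left out. Pdcd1, which encodes PD-1, was at 98.9, 111 and 111 CPM at D5 and 188, 198 and 204 CPM at D49 (log2 fold change 0.87 ± 0.11, edgeR adjusted p = 8.48e-06). Slamf6, a homotypic receptor, was at 113, 113 and 122 CPM at D5 and 185, 199.6 and 183 CPM at D49 (log2 fold change 0.71 ± 0.10, edgeR adjusted p = 4.75e-05). Vsir, which encodes the checkpoint VISTA, was at 99.3, 86.8 and 100.1 CPM at D5 and 180.04, 167 and 165 CPM at D49 (log2 fold change 0.84 ± 0.13, edgeR adjusted p = 0.000146). The ages were well apart in each. Cd226, Cd200r1 and Cd200 also rose (log2 fold changes 0.98, 1.11 and 0.56). Ctla4 and Icos were not called (log2 fold changes 0.18 and 0.43). Klrb1c, which encodes NK1.1, was at 0.602, 0 and 0 CPM at D5 and 9.56, 14.2 and 16.8 CPM at D49 (edgeR adjusted p = 0.00291). The NK cell marker sum, of which it is a member, was higher at D49 but overlapped between the ages without it, as given above. Other members of that list moved in both directions. Ncr1, the defining NK receptor gene, was at 0 in 4 of the 6 libraries and at most 0.519 CPM. Klre1 had 0 counts in each D5 library and 2, 2 and 5 counts at D49. Gzma had 9, 11 and 19 counts at D5 and 0, 3 and 0 counts at D49. The part of NK cells in the Klrb1c change was not tested.

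The genes that define Treg cells split. Of 39 tested 10 rose and 4 fell (median 0.18), and the higher count was 5 without D49 P1 replicate 1 and 6 without any 1 of the 3 D5 libraries. Nrp1, a surface marker of thymic Treg cells, was at 19.5, 18.4 and 13.8 CPM at D5 and 60.2, 37.99 and 44.3 CPM at D49 (log2 fold change 1.47 ± 0.26, edgeR adjusted p = 0.000426). Ikzf4, the factor Eos, was at 113, 121 and 114 CPM at D5 and 172, 160.2 and 172 CPM at D49 (log2 fold change 0.54 ± 0.12, edgeR adjusted p = 0.00341). Lgals1, which encodes galectin-1, fell, at 315, 350.4 and 333 CPM at D5 and 132, 134 and 114 CPM at D49 (log2 fold change -1.39 ± 0.13, edgeR adjusted p = 1.64e-07). Ikzf1, the factor Ikaros, fell by less (log2 fold change -0.46 ± 0.08, edgeR adjusted p = 0.000262), and so did Gpr83 (log2 fold change -0.60 ± 0.13, edgeR adjusted p = 0.00383). Ikzf2, the factor Helios, was at 341, 413 and 301 CPM at D5 and 406, 409.7 and 512 CPM at D49 and overlapped between ages (log2 fold change 0.33 ± 0.24, edgeR adjusted p = 0.465).

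The shared beta chain of the IL-2 and IL-15 receptors, Il2rb, was at 292, 278 and 276 CPM at D5 and 401, 473 and 454 CPM at D49 (log2 fold change 0.65 ± 0.13, edgeR adjusted p = 0.00152), whereas the alpha chain gene Il2ra did not separate the ages. Among 42 cytokine receptor and STAT5 pathway genes 7 rose and 1 fell (median 0.29). Il6st, the gp130 chain of the IL-6 family, was at 103, 88.5 and 89.02 CPM at D5 and 177, 153 and 185 CPM at D49 (log2 fold change 0.88 ± 0.14, edgeR adjusted p = 0.000115). Stat4 was at 19.3, 17.6 and 19.8 CPM at D5 and 35.7, 46.96 and 35.6 CPM at D49 (log2 fold change 1.06 ± 0.20, edgeR adjusted p = 0.000762). Stat5b rose by less (log2 fold change 0.41 ± 0.10, edgeR adjusted p = 0.00976), and its call was lost without D5 P1 replicate 2 (adjusted p = 0.0632). Il7r was not called (log2 fold change 0.20 ± 0.18, edgeR adjusted p = 0.567).

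Genes of mature and recirculating T cells gave 13 higher and 3 lower of 44 (median 0.33), and the higher count was 8 without D5 P1 replicate 2. D49 P1 replicate 2 was the highest D49 library for 11 of the 13, against 245 of all 611 genes called higher. Without that library 9 of the list were called higher, as were 9 without D5 P1 replicate 1 or 3. Itgb2, the beta chain of LFA-1, was at 946, 916 and 937 CPM at D5 and 1446, 1539.7 and 1259 CPM at D49 (log2 fold change 0.60 ± 0.09, edgeR adjusted p = 8.69e-05). Crip1, a LIM domain protein, fell, at 268, 230.1 and 303 CPM at D5 and 99.3, 105 and 97.7 CPM at D49 (log2 fold change -1.41 ± 0.12, edgeR adjusted p = 9.39e-08). The exit receptor gene S1pr1 and its regulator Klf2 were not called: S1pr1 was at 223, 208 and 234 CPM at D5 and 188, 207 and 205 CPM at D49 and Klf2 at 24.3, 17.8 and 25.1 CPM at D5 and 11.9, 13.7 and 16.1 CPM at D49 (edgeR adjusted p = 0.358 and 0.0667). Cd44 and Cd69 were not called either (log2 fold changes 0.11 and 0.11).

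Of 8 Gimap genes, small GTPases that support lymphocyte survival, 6 rose and none fell (median 0.56). D49 P1 replicate 2 was the highest D49 library for 5 of the 6, against 245 of all 611 genes called higher. Gimap3 was at 216, 172 and 182 CPM at D5 and 494, 585 and 527 CPM at D49 (log2 fold change 1.49 ± 0.09, edgeR adjusted p = 1.49e-09). Gimap7 was at 15.4, 18.6 and 20.6 CPM at D5 and 63.9, 85.7 and 48.9 CPM at D49 (log2 fold change 1.85 ± 0.20, edgeR adjusted p = 9.59e-07). The remaining calls were Gimap4, Gimap6, Gimap1 and Gimap8, with log2 fold changes from 0.51 to 0.91, and Gimap8 lost its call without D49 P1 replicate 2 (adjusted p = 0.0522). This list was added after the data were seen.

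Of 19 chemokine and lipid receptor genes tested, 3 rose and 2 fell (median 0.14), the higher count being 1 without D5 P1 replicate 2 or 3 and the lower count 1 without any 1 of the 6 libraries. Cxcr3, a receptor of type 1 T cells, was at 4.61, 0.938 and 1.66 CPM at D5 and 28.2, 37.05 and 58.3 CPM at D49 (log2 fold change 4.11 ± 0.97, edgeR adjusted p = 0.0104), and its call was lost without D5 P1 replicate 2 (adjusted p = 0.072), without D5 P1 replicate 3 (0.0701) and with no filter on low counts (0.0677). Gpr183, an oxysterol receptor, was at 106, 100.1 and 102 CPM at D5 and 159, 179 and 136 CPM at D49 (log2 fold change 0.62 ± 0.14, edgeR adjusted p = 0.00364). Ccr7 and Ccr9, which place thymocytes in medulla and cortex, were not called: Ccr7 was at 1539.6, 1549 and 1604 CPM at D5 and 1767, 1689 and 1687 CPM at D49 and Ccr9 at 524, 502 and 519 CPM at D5 and 443, 391 and 398 CPM at D49 (edgeR adjusted p = 0.336 and 0.397). Limma voom called Ccr7 higher (adjusted p = 0.0409), and the fit of the compared libraries alone called Ccr9 lower (0.00961). Ccr8 (log2 fold change -0.73 ± 0.22, edgeR adjusted p = 0.0404) lost its call without any 1 of the 6 libraries (adjusted p from 0.0893 to 0.17).

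Effector factors and cytokines gave 7 higher and none lower of 35 (median 0.34). Tnfsf8, which encodes CD30 ligand, was at 30.7, 24.0001 and 28.6 CPM at D5 and 108, 98.6 and 108 CPM at D49 (log2 fold change 1.92 ± 0.26, edgeR adjusted p = 1.79e-05). Ltb, which encodes lymphotoxin beta, was at 408, 412 and 457 CPM at D5 and 604, 655 and 632 CPM at D49 (log2 fold change 0.57 ± 0.08, edgeR adjusted p = 3.24e-05). Bcl6, the factor of follicular T cells, was at 45.7, 54.4 and 40.9 CPM at D5 and 92.4, 93.9 and 79.7 CPM at D49 (log2 fold change 0.92 ± 0.15, edgeR adjusted p = 0.000297). Bhlhe40, a factor of activated T cells, was at 14.6, 23.1 and 14.6 CPM at D5 and 39.6, 50.5 and 51.9 CPM at D49 (log2 fold change 1.44 ± 0.26, edgeR adjusted p = 0.000589). All 4 genes were well apart between ages. Tnfsf11, which encodes RANKL, was at 9.03, 29.3 and 32.9 CPM at D5 and 75.1, 63.7 and 83.2 CPM at D49 (log2 fold change 1.63 ± 0.44, edgeR adjusted p = 0.0198), and its call was lost without D49 P1 replicate 1 (adjusted p = 0.0588), D49 P1 replicate 3 (0.0762) or D5 P1 replicate 1 (0.0652), the library that was lowest.

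Immature thymocyte genes gave 2 higher of 18. Dntt, the terminal transferase that adds random nucleotides to TCR joints, was at 3.81, 5.06 and 7.81 CPM at D5 and 17.96, 27.6 and 26.1 CPM at D49 (log2 fold change 2.09 ± 0.48, edgeR adjusted p = 0.00523). Cd1d1, which presents lipids, was at 70.02, 67.1 and 76.4 CPM at D5 and 119, 134 and 102 CPM at D49 (log2 fold change 0.73 ± 0.14, edgeR adjusted p = 0.000763). Dntt is a marker of double-positive thymocytes, whose summed markers were also higher at D49, whereas Rag1 was at most at 1.00 CPM in each of the 6 libraries and Ptcra at 0. Cd24a, which falls as thymocytes mature, was at 119, 127 and 127 CPM at D5 and 97.5, 134 and 103 CPM at D49 and was not called (log2 fold change -0.16 ± 0.46, edgeR adjusted p = 0.905).

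Genes of the perinatal programme were mostly too low to test, with 9 tested of 23 in the count table. Igf2bp3, a fetal RNA-binding protein and target of the Lin28b pathway, was at 143, 137 and 136 CPM at D5 and 38.01, 24.3 and 38.04 CPM at D49 (log2 fold change -2.05 ± 0.16, edgeR adjusted p = 2.21e-08), 4.14-fold lower at D49. Hmga1, a chromatin architectural protein, was at 68.2, 61.1 and 66.8 CPM at D5 and 30.6, 22.2 and 25.8 CPM at D49 (log2 fold change -1.32 ± 0.18, edgeR adjusted p = 1.95e-05). Lin28b was at 1.003 CPM or less in each of the 6 libraries, and Zbtb16, the factor PLZF of innate-like T cells, was at 3.61, 2.06 and 2.82 CPM at D5 and 3.03, 1.65 and 1.56 CPM at D49 and was not called (log2 fold change -0.45 ± 1.06, edgeR adjusted p = 0.874). In the apoptosis list Mcl1 rose (log2 fold change 0.65 ± 0.14, edgeR adjusted p = 0.00373) and Bcl2 was not called (log2 fold change 0.03 ± 0.17, edgeR adjusted p = 0.966).

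Single genes outside these groups had some of the widest changes. Ryr2 (mm10 chr13:11553102-12106945, minus strand), a calcium release channel of the endoplasmic reticulum, was at 109, 147 and 103 CPM at D5 and 0.233, 3.304 and 3.63 CPM at D49 (log2 fold change -5.57 ± 0.72, edgeR adjusted p = 9.93e-05), with D12 P1 libraries at 82.6, 109 and 121 CPM. Cd163l1, a scavenger receptor typical of gamma delta T cells, was at 53.4, 47.6 and 38.2 CPM at D5 and 1.63, 4.96 and 2.25 CPM at D49 (log2 fold change -3.98 ± 0.47, edgeR adjusted p = 6.95e-06). Sox13, another gene of that lineage, was at 9.83, 12.0001 and 12.6 CPM at D5 and 0, 0.708 and 0.346 CPM at D49 (log2 fold change -4.93 ± 0.93, edgeR adjusted p = 0.000934), and Trdc, the delta constant region, was at 2.61, 2.06 and 3.82 CPM at D5 and 6.996, 5.43 and 3.804 CPM at D49 and was not called (log2 fold change 0.91 ± 0.50, edgeR adjusted p = 0.29), with its mean higher at D49. Crmp1 was at 102, 130.1 and 164 CPM at D5 and 12.8, 7.32 and 18.3 CPM at D49 (log2 fold change -3.34 ± 0.33, edgeR adjusted p = 1.15e-06). Fbln1, an extracellular matrix gene, was at 203, 222 and 235 CPM at D5 and 14.5, 31.9 and 36.7 CPM at D49 (log2 fold change -2.98 ± 0.29, edgeR adjusted p = 8.06e-07). Myo6, an unconventional myosin, fell by 2.996 on the log2 scale.

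Among the genes that rose most, Vmn2r97 (mm10 chr17:18914300-18958087, plus strand), annotated as a vomeronasal receptor gene, was at 3.61, 5.06 and 4.32 CPM at D5 and 136, 124 and 142 CPM at D49 (log2 fold change 4.94 ± 0.24, edgeR adjusted p = 2.69e-11). Tsc22d3, the glucocorticoid-induced leucine zipper, was at 56.2, 41.8 and 50.7 CPM at D5 and 208, 237 and 211 CPM at D49 (log2 fold change 2.14 ± 0.16, edgeR adjusted p = 6.14e-09). Wls, which sorts Wnt proteins for secretion, was at 11.4, 12.6 and 16.6 CPM at D5 and 94.9, 92.03 and 88.9 CPM at D49 (log2 fold change 2.76 ± 0.29, edgeR adjusted p = 1.05e-06), and Wnt10a, a Wnt ligand, was at 5.82, 5.81 and 6.64 CPM at D5 and 62.5, 28.6 and 37.7 CPM at D49 (log2 fold change 2.81 ± 0.49, edgeR adjusted p = 0.000574). No library of one age overlapped the other in these genes, but the rule for the largest changes takes only genes without such overlap. Als2cl (mm10 chr9:110879870-110900530, plus strand) was at 54.4, 40.7 and 36.9 CPM at D5 and 223, 217 and 226 CPM at D49 and Tmie (mm10 chr9:110865711-110880113, minus strand) at 1.61, 3.56 and 1.33 CPM at D5 and 46.4, 38.7 and 37.5 CPM at D49 (log2 fold changes 2.34 and 4.23). Their 5' ends overlap on opposite strands and the strand setting of the counting is not given, so reads in the overlap cannot be assigned. Sdc4, a heparan sulfate proteoglycan, had a log2 fold change of 3.96, and Insl6 and Cpq 3.99 and 3.06. Of the 40 genes with the largest changes by the rule for named genes, 38 were called in all alternatives that tested them.

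The age change was then set against that of P2, the CD25- Foxp3+ progenitors. In P2, 3788 genes (25.8%) were called between D49 and D5, 2156 higher (14.7%) and 1632 lower (11.1%). Among genes called in both populations, 370 were higher in both, 686 were lower in both and 2 moved in opposite directions. The difference between the age changes, tested as an interaction in the same fit, was called for 55 genes (0.374%), 34 with a higher value for P1 and 21 with a lower one. Of those 55, 28 were genes that were lower at D49 in both populations by their fitted values and fell further in P2.

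**Figure D4:**
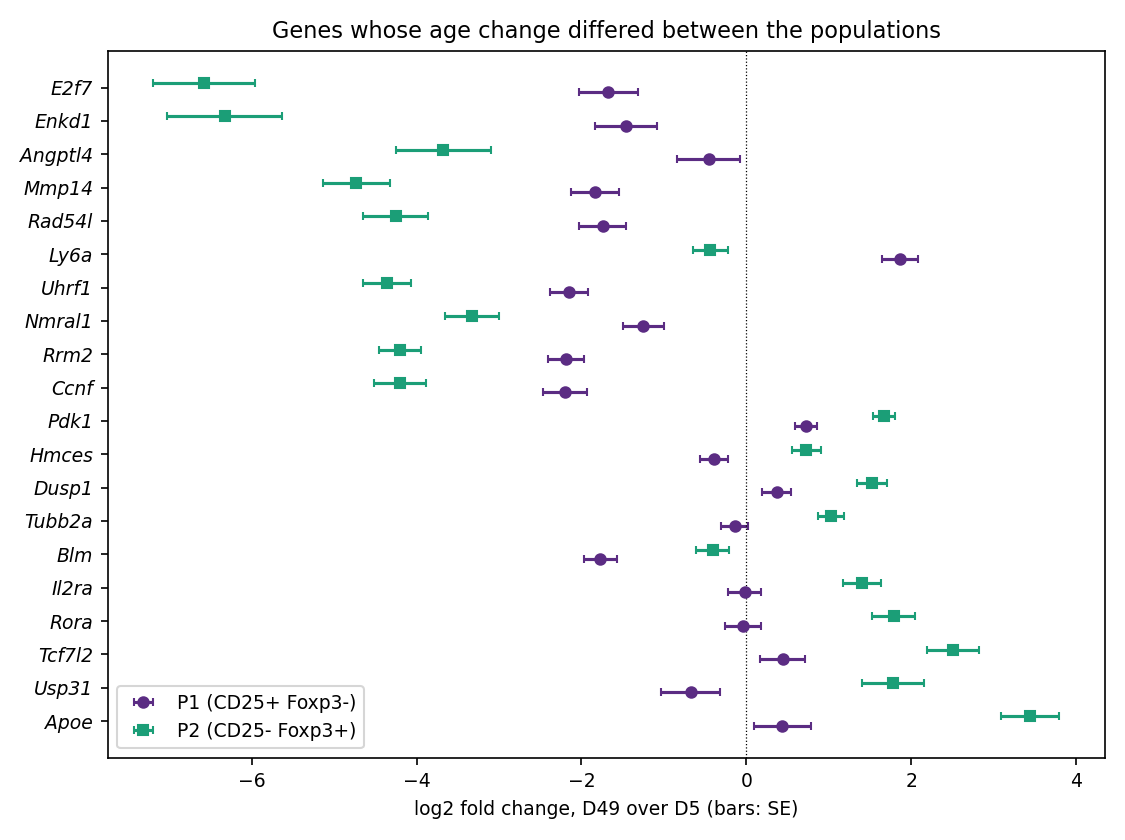
Log2 fold change of D49 over D5 with its SE in P1 (circles) and P2 (squares) for the 20 genes named by the interaction test. E2f7, Uhrf1, Rrm2 and Ccnf lie left of 0 in both populations and farther left in P2, while Ly6a lies right of 0 in P1 (1.87) and left of 0 in P2 (-0.44).

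The count of interaction calls moved widely when 1 library was left out: 2 without D5 P1 replicate 2 or D5 P2 replicate 3, 7 without D5 P2 replicate 1, 12 and 13 without D5 P1 replicates 1 and 3, 15 to 17 without D49 P1 replicate 2, D49 P1 replicate 3 or D5 P2 replicate 2, 120 without D49 P2 replicate 3 and 1245 without D49 P2 replicate 1. D49 P2 replicates 2 and 3 had 27729 and 28765 detected genes against 19951 in replicate 1, and 174 genes were called without both. Of 23 genes named with an interaction call, 21 lost it without D5 P1 replicate 2, and 21 without D5 P2 replicate 3.

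Cell cycle genes whose fall was smaller in P1 included Rrm2, the small subunit of ribonucleotide reductase, at 612, 509 and 589 CPM at D5 and 126, 116 and 132 CPM at D49 in P1 and 371, 369 and 368 CPM at D5 and 9.81, 16.96 and 32.1 CPM at D49 in P2 (difference 2.01 ± 0.32 on the log2 scale, edgeR adjusted p = 0.0135). Uhrf1 was at 176, 197 and 197 CPM at D5 and 4.76, 14.1 and 9.38 CPM at D49 in P2 (difference 2.203 ± 0.37 on the log2 scale, edgeR adjusted p = 0.0195), beside the P1 values given above. Ccnf, which encodes cyclin F, was at 261, 232 and 231 CPM at D5 and 48.5, 57.3 and 51.9 CPM at D49 in P1 and 224, 196 and 189 CPM at D5 and 3.87, 23.3 and 7.41 CPM at D49 in P2 (difference 2.001 ± 0.41 on the log2 scale, edgeR adjusted p = 0.0355). The D49 libraries of P2 were under those of P1 in each of these genes. Blm, a DNA helicase, went the other way, at 81.7, 73.9 and 74.1 CPM at D5 and 20.3, 20.8 and 25.9 CPM at D49 in P1 and 45.8, 42.4 and 46.7 CPM at D5 and 28.2, 26.9 and 45.9 CPM at D49 in P2 (difference -1.36 ± 0.29 on the log2 scale, edgeR adjusted p = 0.0355).

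Ly6a, which rose in P1, was at 122, 99.6 and 97.1 CPM at D5 and 68.7, 98.2 and 69.4 CPM at D49 in P2 (difference 2.303 ± 0.31 on the log2 scale, edgeR adjusted p = 0.00296). Il2ra, not called in P1, rose in P2 from 14.99, 20.5 and 11.3 CPM to 32.7, 42.8 and 47.7 CPM (difference -1.43 ± 0.30 on the log2 scale, edgeR adjusted p = 0.0355), a population sorted as CD25-. Apoe, an LXR target and a macrophage product, was at 18.7, 10.9 and 10.1 CPM at D5 and 17.5, 21.002 and 15.2 CPM at D49 in P1 and 16.1, 8.44 and 7.95 CPM at D5 and 75.2, 97.2 and 181 CPM at D49 in P2 (difference -3.005 ± 0.49 on the log2 scale, edgeR adjusted p = 0.0135). Rora, a nuclear receptor, was at 57.98, 60.8 and 63.6 CPM at D5 and 67.6, 59.2 and 51.2 CPM at D49 in P1 and 8.14, 8.44 and 10.3 CPM at D5 and 30.9, 40.3 and 22.5 CPM at D49 in P2 (difference -1.82 ± 0.34 on the log2 scale, edgeR adjusted p = 0.0221). In P1 both genes overlapped between ages.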

How the data were processed

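The values are raw read counts, in a single table of gene symbols by 50 libraries that the authors deposited. The submitters' processing notes name STAR 2.7.3a, featureCounts and the build mm10. Annotation, strand setting and the treatment of multi-mapping reads: not given in the sources used here. The extract protocol in the labels speaks of another tissue than thymus, so its sorting details were not used. Groups and replicate numbers came from the titles, and all columns were mapped to samples. Gene positions came from GENCODE M21 (mm10). Promoters came from RefSeq (GRCm38.p6).

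Tests used R 4.3.3 and edgeR 4.0.16, with its quasi-likelihood F test (TMM, filterByExpr with minimum count 10 and minimum total count 15, robust fit, two-sided) over 18 thymus libraries, with Benjamini-Hochberg adjustment at 0.05. The SE was computed as |log2 fold change| / sqrt(F). The scripts were tested on simulated data. Levels are TMM-normalised CPM, except plain CPM for marker sums and for genes not tested. Alternatives were other size factors, no filter on low counts, a level filter, DESeq2 1.42.0, limma 3.58.1 voom with quality weights, the compared libraries only, a replicate block and leaving out each library. Total counts of 4155289 to 6246862 per library set the precision. Replicates of a group were checked for duplicates by chi-square over genes: the statistic was 5.05 to 8.76 times its degrees of freedom, and no library was treated as a duplicate.

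The comparison, the lists (26 of pathways and 13 of markers, with 2 added after seeing the data) and the rules were chosen with earlier results of these data known. Named genes were the 20 largest changes each way among called genes averaging 10 CPM or more with no overlap between ages, up to 8 called members of a list by adjusted p, a set of marker genes named whether called or not, and up to 10 each way by the interaction test in which at least 1 population showed no overlap. Gene models known by a number, pseudogenes and receptor segments were left out, and not every gene taken by the rule is printed. Some genes are not reported here.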

Additional observations from a re-analysis of the deposited data

Results flagged for a closer look

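The age change of 55 genes differed between P1 and P2 by the edgeR interaction test (adjusted p under 0.05 over 14696 genes), and 23 of these, given here, are among the genes followed by name. Values are the log2 age change in P1 minus that in P2, on 3 libraries in each of 4 groups. The difference was positive for 13 of the 23. Of these, E2f7 (4.90, adjusted p = 0.0135), Enkd1 (4.87), Rad54l (2.51), Uhrf1 (2.203), Nmral1 (2.07), Rrm2 (2.01), Ccnf (2.00), E2f2 (1.202), Mmp14 (2.90) and P2rx7 (1.51) were called lower at D49 in both populations and fell further in P2. Angptl4 (3.22) was called lower in P2 and was not called in P1. Ly6a (2.303, adjusted p = 0.00296) and Ifi27l2a (0.90, adjusted p = 0.0221) were called higher in P1 and were not called in P2.

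The difference was negative for the other 10 of the 23. Apoe (-3.00, adjusted p = 0.0135), Usp31 (-2.45), Tcf7l2 (-2.07), Rora (-1.82), Il2ra (-1.43, adjusted p = 0.0355), Tubb2a (-1.17), Dusp1 (-1.16) and Hmces (-1.12) were called higher at D49 in P2 and were not called in P1. Pdk1 (-0.95) was called higher in both, with the larger change in P2. Blm (-1.36) was called lower in P1 and was not called in P2. The largest adjusted p of the 23 was 0.0463, that of Angptl4. Of 9 tested macrophage and monocyte markers 7 were called higher at D49 in P2, against 14.7% of all genes tested. In P1 there were 3, against 4.16%, and all 3 calls were lost without D49 P1 replicate 2. The part of these markers in the differences above was not tested.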

How the results depend on the processing

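Of 234 genes followed under the alternatives, 197 to 208 kept both direction and side of the threshold with 1 library left out, and 212 to 232 did under every other setting that tested at least 229 of them. The 1587 calls were 1029 to 1209 with 1 library left out, 2653 in the compared libraries only (12085 genes tested) and 3155 by limma voom. Called under every setting were 645 genes, where a gene that a setting did not test counts as not called. The filter at a mean of 20 CPM tested 7409 genes, so the 645 depend on expression level too. The share of higher genes among the calls was 38.5%, and 48.7% with no filter on low counts, which tests 46017 genes. The 55 interaction calls were 307 by DESeq2, 16 in the compared libraries only, 433 by limma voom, 853 with no filter, 2 to 1245 with 1 library left out, and 174 without D49 P2 replicates 2 and 3, a setting chosen after seeing the data. Replicate numbers were not taken as pairs: deviations of same-numbered libraries correlated at 0.0167, -0.0232 and 0.00268, and a replicate block gave 1525 calls and 48 interaction calls. Sterol synthesis genes called lower numbered 12 to 15 with 1 library left out, and TNF receptor and NF-kB genes called higher 5 to 8, 14 in the compared libraries only and 14 by limma voom. The CD4 T cell marker sum was higher at D49 by 668 CPM in plain CPM and by 393 CPM in normalised CPM, where the ages overlapped (exact permutation p = 0.2). Changes of sign touched genes that were not called in the age comparison: Il2ra (0.00888 compared libraries only, 0.0258 limma voom, 0.0380 no filter, -0.0957 to 0.120 with 1 library left out), Lin28b (0.736 limma voom, 0.0328 no filter, -0.570 to 0.869), Nr4a1 (0.0179 no filter, -0.0719 to 0.0663), Cd5 (-0.0219 limma voom, -0.0404 to 0.0659), Bcl2 (-0.0658 to 0.218), Rora (0.0209 no filter, -0.0937 to 0.0750) and Tubb2a (-0.256 to 0.0323). The causes were not tested. Depth limits the low genes: 34 of 70 histone genes and 14 of 23 perinatal genes in the count table were too low to test.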
